A study of Rattus norvegicus with 6 samples.

Results

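The rat reference assembly mRatBN7.2 contains, beside its numbered chromosomes, many short scaffolds that have not been placed on a chromosome, and some of them carry ribosomal DNA. The regions described here are the differentially methylated regions (DMRs) between CUMS and Ctrl whose sequence name was not 1 to 20, X, Y or MT. They comprised 466 of the 160692 listed regions (0.290%) and lay on 98 scaffolds. DNA methylation had been measured in brain microvascular endothelial cells (BMECs), sorted as CD45- and CD31+ cells from the hippocampus of male Sprague-Dawley rats. Rats of the CUMS group lived under chronic unpredictable mild stress over 8 weeks and Ctrl rats did not, with 3 samples per group. Neither the age of the rats nor the number of animals behind a sample was used here, and the purity of the sorted cells could not be checked with methylation levels alone. The authors listed 1 mean level per group for each region, expressed here in percent. Each level therefore stands without replicate error, its read depth in the region is unknown, and no difference could be compared with the spread between rats.

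Ribosomal DNA consists of many copies of a unit that encodes the 18S, 5.8S and 28S ribosomal RNAs, which RNA polymerase I transcribes as a single precursor, and of separate 5S genes, which RNA polymerase III transcribes. In mammalian cells only some of the copies are active, and CG methylation is a known mark of silent copies. Satellites and remnants of transposons, which fill much of the unplaced sequence, usually carry dense CG methylation, whereas methylation of cytosines in CHG and CHH (where H stands for A, C or T) is low in most somatic cells. Because the copies of such sequences are nearly identical, reads from copies missing in the assembly may align to a scaffold, and a level can describe a mixture of copies.

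The gene on a scaffold that carried a promoter DMR and could be linked to a RefSeq entry was AC239701.1 (ENSRNOG00000060437), annotated as similar to Med14, a subunit of the Mediator complex that connects transcription factors with RNA polymerase II. Its NCBI gene number corresponded to LOC103694537 on chromosome Y of the GRCr8 assembly. The RefSeq promoter of that entry, from 250 bases before to 50 bases after the start (GRCr8 chrY:276913-277212, plus strand), is shown because it lets the CG sites at such a promoter be seen. CG dinucleotides, the same on both strands, are in capitals.
LOC103694537: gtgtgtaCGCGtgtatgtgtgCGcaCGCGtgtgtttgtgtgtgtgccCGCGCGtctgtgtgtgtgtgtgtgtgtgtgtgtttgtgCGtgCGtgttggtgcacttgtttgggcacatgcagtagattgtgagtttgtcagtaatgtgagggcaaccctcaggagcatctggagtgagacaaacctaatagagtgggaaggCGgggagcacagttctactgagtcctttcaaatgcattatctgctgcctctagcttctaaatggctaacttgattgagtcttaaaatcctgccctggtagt
It held 11 CG dinucleotides in 300 bases. Of 33469 RefSeq promoters of this length, 39.0% held at least as many, the median was 7, and 94.5% held at least 1. These letters are those of GRCr8. The letters of the scaffold copy were not used here.

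The direction of the regions was determined first. On scaffolds, 311 regions were higher in CUMS and 155 were lower, so that 66.7% were higher, compared with 65.3% of all listed regions. In the CG context, 29 of 40 scaffold regions were higher (72.5%), compared with 80.0% of all CG regions. In the CHG context the share was 61.7% (29 of 47 regions), compared with 68.6%, and in the CHH context it was 66.8% (253 of 379 regions), compared with 64.6%. The scaffolds thus held the same majority direction as the whole list in each context, and no test of these shares was made because regions of a scaffold are not replicates of a condition.

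Size was considered next. A difference of at least 10 percentage points was reached by 39 scaffold regions (8.37%), compared with 5.61% of all regions. CG regions accounted for 22 of them, 13 higher and 9 lower in CUMS, which is 55.0% of the scaffold CG regions against 76.1% of all CG regions. Only 2 CHG regions (4.26%) reached it, against 3.12% of all CHG regions, and 15 CHH regions (3.96%) did, against 2.94%. The smallest listed difference on a scaffold was 2.00 points, in a CHH region at MU150189.1:1342236-1342325 with 2.21% in CUMS and 0.210% in Ctrl.

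The contexts differed in the levels behind the differences. CG regions that were higher in CUMS had a median of 35.9% in CUMS and 27.1% in Ctrl on scaffolds, and of 25.6% and 7.93% on chromosomes. The Ctrl median of these regions was therefore higher on scaffolds than on chromosomes. It was 27.4% for the 17 regions on JACYVU010000738.1 and JACYVU010000706.1, and 10.3% for the 12 on other scaffolds. CG regions that were lower in CUMS had medians of 35.3% and 59.8% on scaffolds, and of 58.3% and 81.9% on chromosomes. The Ctrl median of the lower regions was thus lower on scaffolds. CHG regions that were higher in CUMS had a median of 3.35% in CUMS and 0.0336% in Ctrl, and those that were lower had 0.0294% and 4.17%. CHH regions that were higher had a median of 3.50% and 0.186%, and those that were lower had 0.133% and 3.12%. On chromosomes the medians were close to these. For CHG they were 4.23% and 0.0441% in higher regions, and 0.0344% and 4.06% in lower ones. For CHH they were 3.02% and 0.163%, and 0.150% and 2.87%. The group with the lower level was under 0.5% in 46 of 47 CHG regions on scaffolds (97.9%, compared with 95.7% on chromosomes). The same held for 321 of 379 CHH regions on scaffolds (84.7%, compared with 90.3% on chromosomes) and for none of the 40 CG regions.

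**Figure D1:**
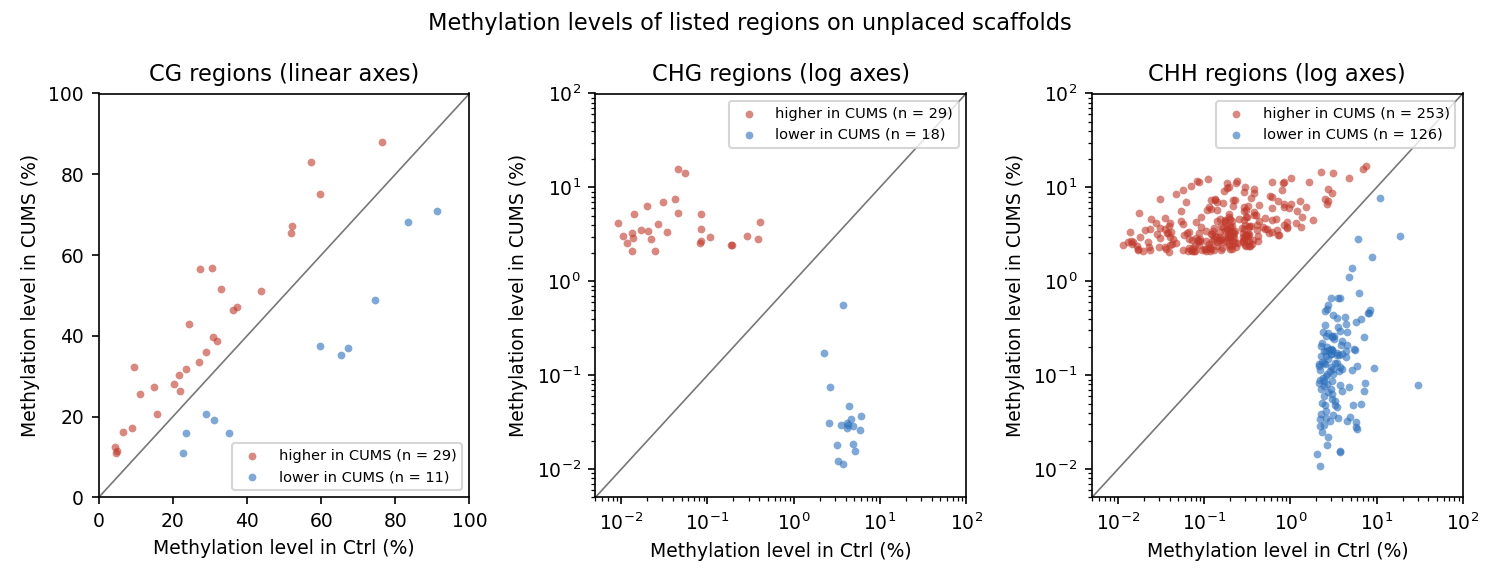
Level in CUMS (y axis, %) against level in Ctrl (x axis, %) for the 40 CG, 47 CHG and 379 CHH regions on unplaced scaffolds, with 1 point per region, the line of equal levels and log axes for CHG and CHH. CG points lie on both sides of the line, with Ctrl levels of 4.47% to 76.3% above it and 22.7% to 91.1% below it. Of them, 22 lie at least 10 points from equal levels, whereas nearly all CHG points and most CHH points have 1 group under 0.5%.

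The regions were spread unevenly. The 10 scaffolds with most regions held 221 of the 466 (47.4%), 12 scaffolds held at least 10, and 36 scaffolds held 1. Scaffold lengths were not used here, so the counts are not set against length. The last region ended at base 1342325 on MU150189.1 and at base 1783187 on MU150191.1, so these scaffolds are at least that long. MU150189.1 had the most, with 50 regions, of which 32 were higher and 18 lower in CUMS. JACYVU010000493.1 followed with 34, of which 17 were higher and 17 lower, and MU150191.1 with 26, of which 18 were higher. JACYVU010000738.1, which carries ribosomal DNA, had 20 regions, 14 of them higher. MU150190.1 had 9 higher and 10 lower regions, JACYVU010000706.1 had 12 and 5, MU150197.1 had 10 and 6, and JACYVU010000319.1 had 10 and 3. MU150215.1 had 6 higher and 7 lower regions. All 13 regions of MU150195.1 were higher, with a median of 4.09% in CUMS and 0.156% in Ctrl. Of the 62 scaffolds with at least 2 regions, 16 had only higher and 2 only lower regions, and on the rest both directions occurred. CG regions were found on 11 scaffolds, CHG regions on 25 and CHH regions on 94.

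**Figure D2:**
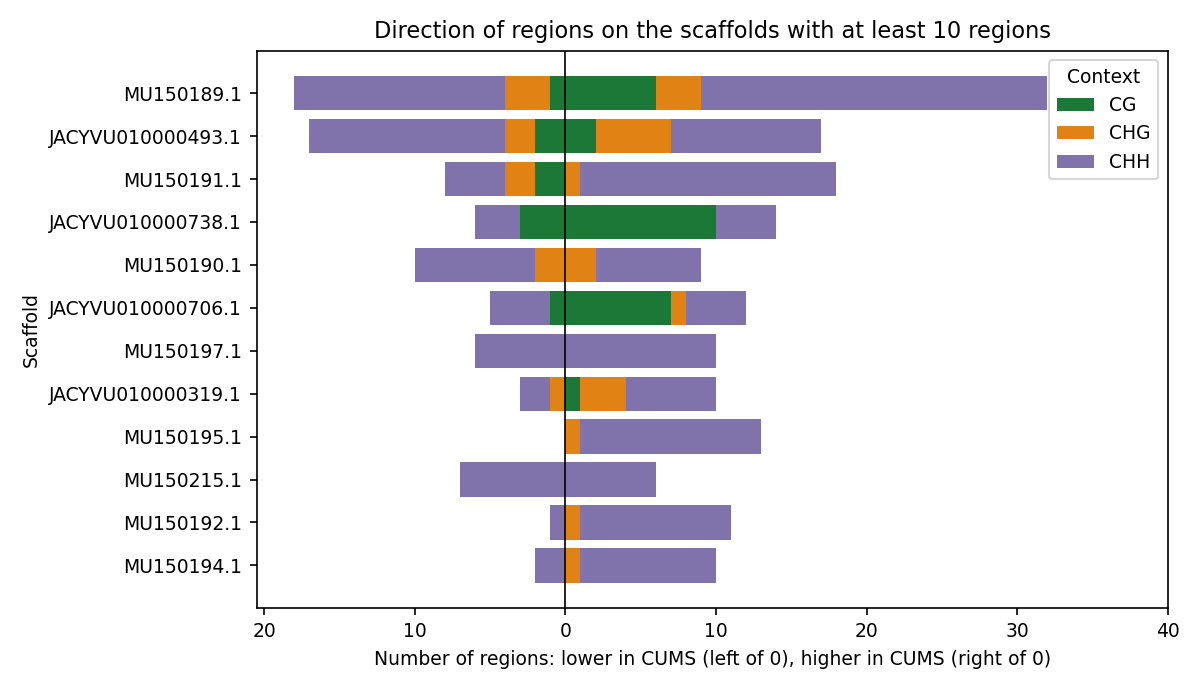
Number of regions lower in CUMS (left of 0) and higher in CUMS (right of 0) on each of the 12 scaffolds with at least 10 regions, coloured by context. CG regions make up most of the bar on JACYVU010000738.1 and a large part on JACYVU010000706.1, while CHH regions prevail on the other scaffolds.

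Ribosomal RNA genes were examined in detail, because they are the best defined sequence on the scaffolds. Scaffold regions were annotated to 3 genes for 5.8S ribosomal RNA, the short RNA that pairs with 28S RNA in the large ribosomal subunit. CG methylation at 1 of these genes was higher in CUMS, CHG methylation at another was higher, and CHG methylation beside the remaining gene was lower. No scaffold region was annotated to a 5S gene, and the rule recognised ribosomal RNA genes by name or repeat class only.

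On JACYVU010000738.1, a CG region at 65299-67176 covered the whole 5.8S gene ENSRNOG00000070263, including its start, exon, end and promoter. It was the longest region on any scaffold (1878 bp, 506 CG cytosines) and had 30.3% in CUMS against 21.8% in Ctrl, 8.55 points more. An adjoining CG region at 67277-68445, annotated to the promoter of the same gene, had 28.02% in CUMS and 20.2% in Ctrl. These ranked the first and the second by region score among the scaffold CG regions that were higher in CUMS, a score that grows with the number of cytosines. Weighted by cytosines, both together had 29.5% in CUMS and 21.2% in Ctrl.

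The surroundings of this gene held further CG regions. JACYVU010000738.1 had 13 CG regions over 36504 bp, all within CpG islands, of which 10 were higher and 3 lower in CUMS. Downstream in scaffold coordinates, 5 regions between 69461 and 76032 were all higher, by 4.37 to 9.74 points. In order they had 33.5%, 20.8%, 26.3%, 47.2% and 35.9% in CUMS, and 27.1%, 15.7%, 22.0%, 37.4% and 28.9% in Ctrl. The third of them lay on a copy of FordPrefect, a DNA transposon of the hAT family. Before the gene, a region at 61133-61455 had 31.7% in CUMS and 23.5% in Ctrl.

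Between that region and the gene the direction alternated within less than 3 kb. The region at 62134-62193 had 35.3% in CUMS and 65.4% in Ctrl. It was followed by regions at 63529-63584 with 56.6% and 27.4%, and at 63868-63945 with 56.9% and 30.6%. The next one, at 64398-64485, had 37.0% in CUMS and 67.1% in Ctrl. These 4 short regions held 6 to 18 cytosines each and had the largest differences of the scaffold, of both signs. A more distant region at 39529-39907 had 19.1% in CUMS and 31.1% in Ctrl, and it had the largest absolute region score among the lower CG regions. Weighted by cytosines, all 13 regions together had 29.6% in CUMS and 22.6% in Ctrl. The scaffold also had 7 CHH regions, 4 higher and 3 lower in CUMS, none of which lay between 54724 and 76876, where the ribosomal DNA regions are.

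JACYVU010000706.1 had 8 CG regions, all in CpG islands, of which 7 were higher and 1 was lower in CUMS. Weighted by cytosines, they had 43.0% in CUMS and 32.8% in Ctrl. The longest, at 77526-78448, lay on another FordPrefect copy and had 46.4% and 36.1%. Among all CG regions on chromosomes a single one lay on FordPrefect. A region at 90797-91012 had 43.0% in CUMS and 24.4% in Ctrl and was annotated to ENSRNOG00000068039 and ENSRNOG00000070284. The proteins of these genes resemble yeast ART2, which in yeast is encoded on the strand opposite to ribosomal RNA, and Testin. The same resemblances were listed for ENSRNOG00000065867 and ENSRNOG00000065988 on JACYVU010000738.1, although no region of JACYVU010000706.1 was annotated to a ribosomal RNA gene. A region at 112402-112642 had 51.7% in CUMS and 33.1% in Ctrl. The lower region, at 76441-76641, had 20.8% in CUMS and 29.0% in Ctrl and lay between regions with 38.6% and 31.9% and with 39.7% and 30.8%.

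**Figure D3:**
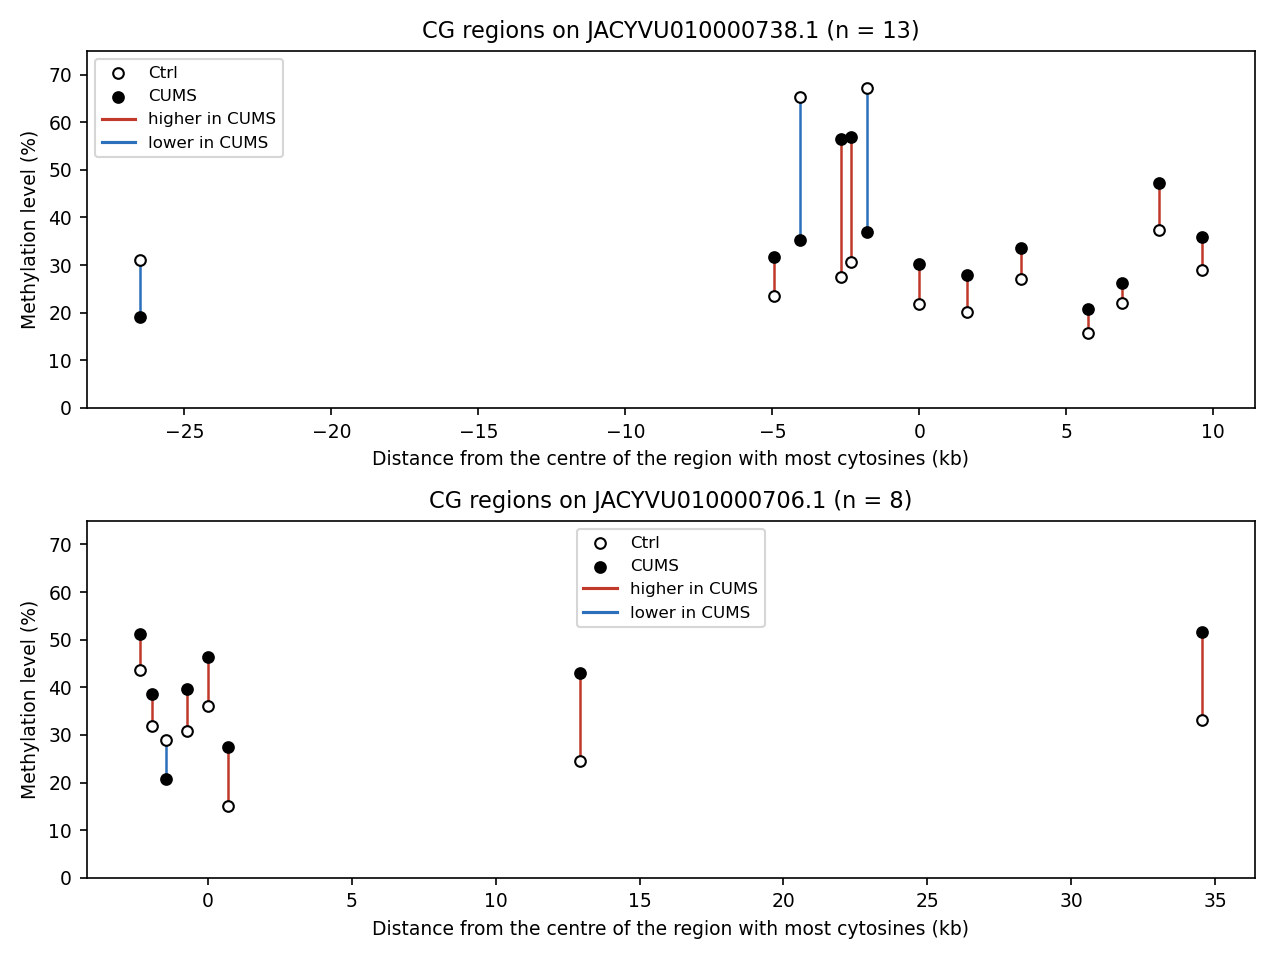
Level of each CG region (y axis, %) on JACYVU010000738.1 with the 5.8S gene ENSRNOG00000070263 (top, 13 regions) and on JACYVU010000706.1 (bottom, 8 regions). The x axis is the distance from the centre of the region with most cytosines (kb). Open circles stand for Ctrl, filled circles for CUMS, red lines for regions higher in CUMS and blue lines for lower ones. At the 5.8S gene itself, at 0 kb in the top panel, the levels are 21.8% and 30.3%, and the widest gaps of both directions stand a few kb to its left.

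At the other scaffold copies the regions were in non-CG contexts. On JACYVU010000238.1, a CHG region over the exon and end of the 5.8S gene ENSRNOG00000063315, at 151491-151598, had 7.58% in CUMS and 0.0424% in Ctrl. A CHH region over the same place, at 151442-151638, had 7.32% and 0.227%. The gene lies in an intron of ENSRNOG00000065904, which resembles a ubiquitin and ribosomal protein L40 fusion, and a further CG region of that intron, on ERVK sequence at 163457-163560, had 11.0% in CUMS and 22.7% in Ctrl. On MU150189.1, the promoter of the 5.8S gene ENSRNOG00000069942 had a CHG region at 1003534-1003725 with 0.0122% in CUMS and 3.28% in Ctrl. The CHH region that overlapped it had 0.199% and 2.66%. The scaffold copies therefore did not share a direction outside the CG context.

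The 5.8S genes on numbered chromosomes were set beside them. There, 19 CG regions at 13 genes on 5 chromosomes were listed, and all 19 were higher in CUMS, with medians of 32.2% in CUMS and 14.4% in Ctrl and differences from 6.48 to 23.0 points. The 2 scaffold regions, with 8.55 and 7.83 points, lay within that range, toward its low end. Among all annotated CG regions in promoters, the feature of most of these regions, 96.9% were higher in CUMS. The genes were recognised by name and their sequences were not compared here. Whether their levels rest on separate reads was not tested. As an example, the region with most cytosines, at chr4:493519-495486, covered the 5.8S gene ENSRNOG00000067251 and had 36.8% in CUMS and 13.9% in Ctrl.

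**Figure D4:**
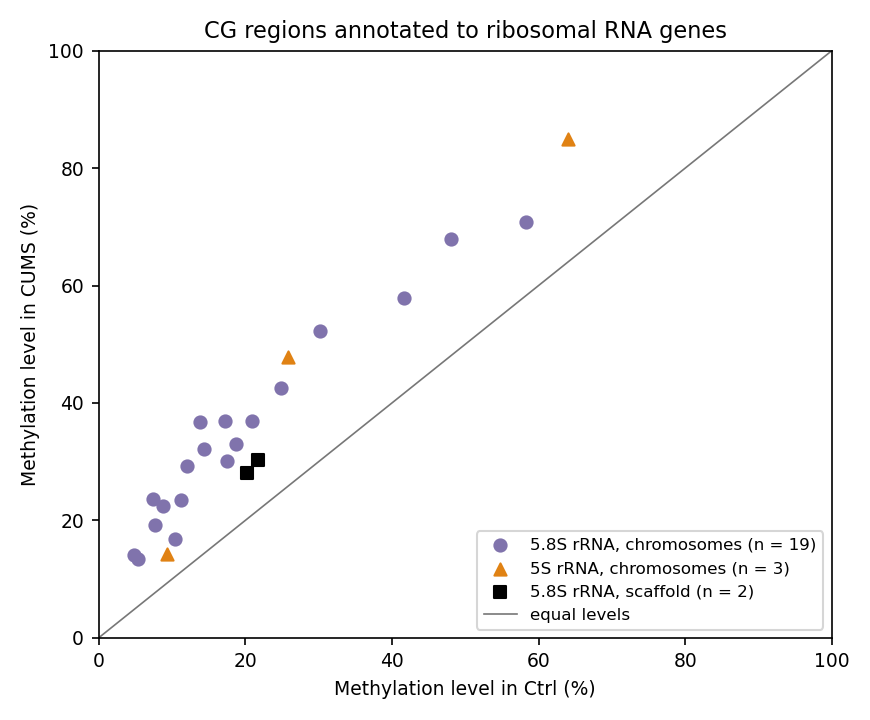
Level in CUMS (y axis, %) against level in Ctrl (x axis, %) for CG regions annotated to ribosomal RNA genes, with 1 point per region for 19 regions of 5.8S genes on chromosomes, 3 regions of 5S genes on chromosomes and 2 regions of a 5.8S gene on a scaffold. All points lie above the line of equal levels, and the scaffold points, at 28.02% and 30.3% in CUMS, lie closer to it than most of the 5.8S points.

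Regions were annotated to 20 genes on 9 scaffolds, of which 9 had only higher regions, 6 only lower regions and 5 both. These genes had 26 regions in all, of which 17 were higher in CUMS (65.4%), compared with 78.1% of all annotated gene regions. A region could be annotated to several overlapping gene models, and the 7 genes on JACYVU010000738.1 shared their regions. ENSRNOG00000065867 (the ART2-like model) had 10 CG regions, 8 of them higher in CUMS, and ENSRNOG00000065988 (the Testin-like model) had 7, 5 of them higher. The 5 CG regions of AABR07000398.1 (ENSRNOG00000047746) and the 3 of ENSRNOG00000068307, which resembles the innate immune regulator Nlrc3, were all higher. ENSRNOG00000070819 had 2 higher and 1 lower region, and ENSRNOG00000063733 shared its 2 higher regions with the 5.8S gene.

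AC239701.1, the Med14-like gene on JACYVU010000493.1 whose RefSeq promoter is printed above, was lower in CUMS in both of its CG regions. The region in its exon and 5′ untranslated region, at 120246-120427, had 37.4% in CUMS and 59.8% in Ctrl. The promoter region at 143581-143633 had 16.0% and 23.6%. On the same scaffold, the start of ENSRNOG00000055562, whose protein resembles the pseudouridine synthase subunit Dkc1, was covered by a region at 39027-39256 with 32.2% in CUMS and 9.65% in Ctrl. Both directions thus occurred at gene starts of a single scaffold.

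AABR07042936.1 (ENSRNOG00000046163) on JACYVU010000319.1, linked through its NCBI gene number to Iqcm, which encodes an IQ domain protein, had 5 intronic regions. Its CG region at 191973-192061 had 67.1% in CUMS and 52.2% in Ctrl. Of its 4 CHG regions, 3 were higher in CUMS, with 2.58% to 3.03% against 0.0135% to 0.286% in Ctrl, and 1 was lower, with 0.0314% against 2.53%. The remaining genes, among them a model on JACYVU010000731.1 that resembles Prrc2c and 3 overlapping models on MU150220.1, had 1 region each.

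CpG islands held 30 of the 40 CG regions on scaffolds (75%), compared with 52.6% of those on chromosomes. JACYVU010000738.1 and JACYVU010000706.1 held 21 of the 30, and on the other 9 scaffolds 9 of 19 CG regions (47.4%) were in islands. Of these island regions 24 were higher in CUMS (80.0%), whereas 97.0% of all annotated CG regions in islands were higher. Higher island regions had a median of 32.0% in CUMS and 22.7% in Ctrl. Among those with low Ctrl levels were 4 island regions on MU150189.1 between 75925 and 77834, all higher in CUMS. Their levels were 16.2%, 12.5%, 11.0% and 17.1% in CUMS, and 6.47%, 4.47%, 4.58% and 8.89% in Ctrl. Another island region, at JACYVU010000493.1:42964-43034, had 11.5% in CUMS and 5.04% in Ctrl. Outside the labelled islands 5 regions were higher and 5 lower, and each of these 10 differed by at least 10 points. Some of the 10, such as the one at JACYVU010000631.1:28341-28438, carried no label of an island or its surroundings. Whether islands were annotated on every scaffold is unknown, so the shares in islands count labelled regions only.

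Repeats covered 66 of the 111 annotated scaffold regions (59.5%), compared with 47.0% on chromosomes. By context the shares were 25% against 28.1% for CG, 72.7% against 53.9% for CHG and 88.9% against 51.8% for CHH. ERVK elements, a class of endogenous retroviruses, had 4 CG regions, all lower in CUMS, while on chromosomes 150 ERVK regions in CG were higher and 155 lower. Within the internal part of RNLTR4 on MU150191.1, a CG region at 976185-976447 had 48.8% in CUMS and 74.5% in Ctrl. A region on L1 and ERVK sequence of MU150218.1, at 63897-64016, had 68.2% and 83.4%. The NICER element of MU150189.1, an ERV1 retrovirus, differed in the other direction at 421748-421801, with 87.9% in CUMS and 76.3% in Ctrl.

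Satellites, the tandem repeats of centromeres and chromosome ends, covered 7 of the 111 annotated scaffold regions (6.31%), compared with 0.339% on chromosomes, and 4 of the 7 were higher in CUMS. The single CG region among them was on SATI_RN of JACYVU010000631.1 at 28341-28438, with 83.2% in CUMS and 57.2% in Ctrl. SATI_RN on chromosomes had 3 CG regions that were higher and 12 that were lower. In CHG, SATI_RN was higher on JACYVU010000614.1 (2.08% against 0.0135%) and lower on JACYVU010000705.1 (0.0275% against 4.14%). ISAT_RN had 2 CHG regions, both lower, and RatSatRep1 had 2, both higher. RatSatRep2, a repeat of unknown class, had 6 regions on 6 scaffolds, all higher in CUMS, while on chromosomes 499 were higher and 240 lower.

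Most CHH regions lay outside the part that the authors annotated. Of 379 CHH regions, 31 were in the reduced list, and 27 of these (87.1%) were higher in CUMS, compared with 64.9% of the other 348. The annotation covered 27 CHH regions, of which 24 lay in repeats and none in a gene feature (41.0% on chromosomes). Of the 24 in repeats 22 were higher in CUMS (91.7%), compared with 79.1% of annotated CHH regions in repeats on chromosomes. L1 elements, the autonomous retrotransposons, held 13 of the 27 (48.1%), compared with 14.4% on chromosomes. Of these 13 regions 12 were higher in CUMS (92.3%), compared with 78.7% on chromosomes. The L1 subfamily Lx9 had 6 regions and the ERVL-MaLR element ORR1D1 had 5, all higher. ORR1D1 levels ranged from 5.46% in CUMS and 0.376% in Ctrl on JACYVU010000647.1 to 11.5% and 1.63% on MU150191.1. On chromosomes these elements were mostly but not always higher, with 45 of 55 CHH regions for Lx9 and 60 of 72 for ORR1D1.

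The CHH regions with the largest differences follow. The annotated part, which held 27 of all 379 CHH regions, held 1 of the 6 regions named next, the one on MU150192.1. A region at MU150220.1:105339-105587 had 0.0778% in CUMS against 30.3% in Ctrl, the largest difference of any scaffold region. At JACYVU010000603.1:37806-38017 the levels were 3.04% and 18.5%, and at JACYVU010000749.1:65179-65337 they were 0.120% and 9.29%. The largest differences in the other direction were those at MU150215.1:80016-80168 (14.8% in CUMS and 2.25% in Ctrl), JACYVU010000493.1:366583-366637 (12.4% and 0.111%) and MU150192.1:204462-204731 (12.7% and 1.01%). By region score, the leading higher CHH regions were 1 on ORR1D1 of JACYVU010000738.1 (9.35% and 0.80%), 1 on L1 of JACYVU010000731.1 (11.2% and 0.186%) and 1 on ORR1D1 of MU150192.1 (11.2% and 0.232%). The leading lower CHH regions were at MU150215.1:147126-147366 (0.0687% and 3.95%), at MU150190.1:462216-462640 (0.126% and 5.95%) and on L1 of JACYVU010000493.1 (0.0269% and 5.998%).

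CHG regions had small differences. The largest was on the L1 subfamily Lx6 of JACYVU010000493.1, at 317650-317703, with 15.7% in CUMS and 0.0449% in Ctrl. The second, close to the first base of MU150190.1 at 59-130, had 14.1% and 0.0554%. The largest differences in the other direction were those of RNLTR15A on JACYVU010000493.1 (0.0369% in CUMS and 6.04% in Ctrl), of an unannotated place on MU150190.1 (0.0261% and 5.94%) and of RMER30 on MU150190.1 (0.0155% and 5.12%). By region score, RatSatRep2 of MU150196.1 (2.79% and 0.390%) led the higher CHG regions. It was followed by RNLTR4 of MU150191.1 and by an L1 element of JACYVU010000706.1 (5.22% and 0.0140%). RNLTR8C2 of MU150191.1 (0.0294% and 4.22%), RNNICER2 in an intron of the Prrc2c-like model (0.0344% and 4.57%) and an element of JACYVU010000647.1 (0.0186% and 4.89%) led the lower ones.

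Regions of different contexts were then compared where they overlapped by at least 1 bp. On scaffolds, 23 of 47 CHG regions (48.9%) overlapped a CHH region, which were 6.07% of the CHH regions, and all 23 pairs had the same direction, 15 higher and 8 lower in CUMS. On chromosomes 68.2% of CHG regions overlapped a CHH region, and 99.8% of the pairs had the same direction. In the group with the higher level, the CHG level was 1.04 times the CHH level at the median over the 23 pairs. Both contexts come from the same reads, so the pairs are not independent.

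A single CG region overlapped regions of the other contexts, and it differed from them in direction. On the RNLTR4 element of MU150191.1, the CG region at 975178-975304 had 70.8% in CUMS and 91.1% in Ctrl. The CHG region over it had 7.06% in CUMS against 0.0303% in Ctrl, and the CHH region had 7.50% and 0.0311%. CG methylation at this element was thus lower in CUMS and non-CG methylation higher.

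**Figure D5:**
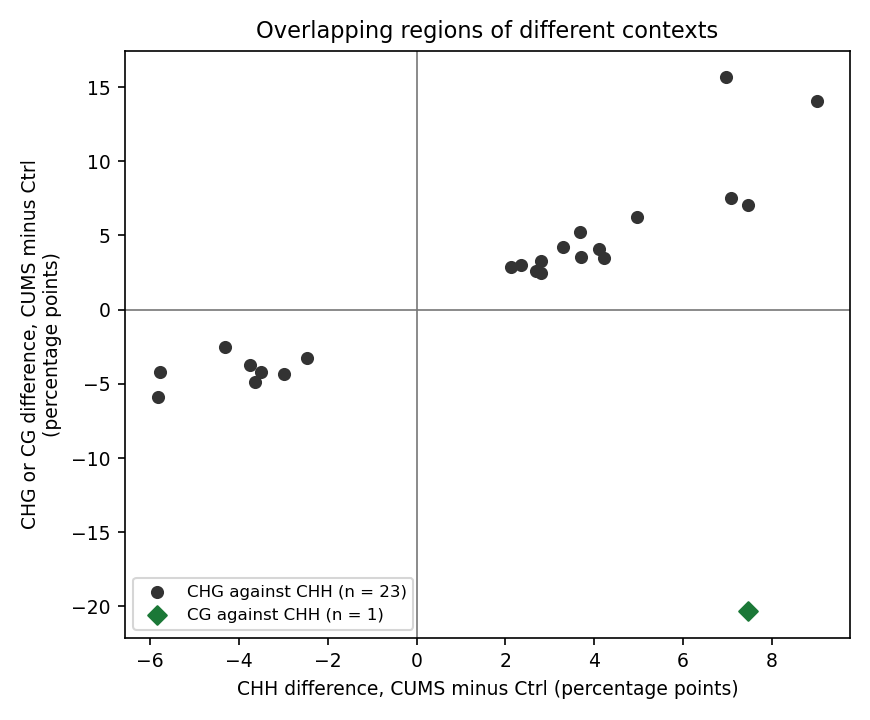
Difference between CUMS and Ctrl (percentage points) of the CHG or CG region (y axis) against that of the CHH region overlapping it (x axis), with 1 point per pair for 23 CHG pairs and 1 CG pair. The CHG pairs lie in the 2 quadrants of equal direction, and the CG pair lies at 7.47 points in CHH and -20.3 points in CG.

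Finally, genes that act on ribosomal DNA were examined. Their listed regions lay on chromosomes, those of Phf8 on chromosome X and the others on numbered chromosomes. A list of 38 genes of RNA polymerase I, its factors, early ribosomal RNA processing and ribosomal DNA silencing was used, of which 13 had a listed region (34.2%) and 25 had none, compared with 25.9% of RefSeq protein-coding genes with a region under the same symbol. These 13 genes had 19 regions, 12 higher and 7 lower in CUMS (78.1% of all annotated gene regions were higher), and the median difference was 3.57 points, compared with 5.68 points for all gene regions. In the CG context 5 of 6 regions were higher, compared with 87.7% of all CG gene regions. An intronic region of Ubtf, the activator of RNA polymerase I on ribosomal DNA, had 30.3% in CUMS and 6.72% in Ctrl. A CG region at the promoter and 5′ end of Kdm2b, a histone demethylase, had 26.4% and 6.66%. Kdm2b also had non-CG regions of both directions. Its CHH regions had 6.26% in CUMS and 0.201% in Ctrl, and 0.426% and 14.3%. Its CHG regions had 5.71% and 0.268%, and 0.312% and 4.90%. Baz2a and Smarca5, the subunits of the complex that silences ribosomal DNA copies, had 18.7% and 7.10%, and 21.7% and 5.79%. The promoter of Phf8, a histone demethylase that activates ribosomal DNA, was lower in CUMS in a CG region, with 8.46% against 27.8% in Ctrl. In introns of Phf8, a CHH region was also lower (0.133% and 12.4%) and a CHG region was higher (4.17% and 0.0452%).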

How the data were processed

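Enzymatic methyl sequencing (TET2 and APOBEC3A) of 3 CUMS and 3 Ctrl samples was analysed from the deposited tables. Per the study's methods and the submitters' processing notes, the authors used FastQC 0.11.3, fastp 0.20.0, Bismark 0.16.3 with Bowtie2 and the mRatBN7.2 assembly, and DSS for DMRs. A cytosine that APOBEC3A left unconverted is counted as methylated in any context. How reads with several alignments were treated is not given in the sources used here. Methylation levels were deposited as a fraction, with 1 value per group, and multiplied to percent. The deposited areaStat score served only to rank regions. Length, number of cytosines and difference were also columns of the deposited tables, and the difference was recomputed. The table of gene body bins was not used here. Without counts, coverage, p-values or values per sample, the planned permutation tests could not be run, and the smallest difference (2.00 points) lay below the limit of 10 points in the study's methods, so all listed regions were kept.

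Scaffold regions were taken from the full list and joined to the annotation by position and context, which covered 111 of 466 regions. Of the 118 in the reduced list, 7 had no annotation. Groups came from sample titles. The regions named were, per context and direction, the 3 with the largest region score and the 3 with the largest difference. The genes named were those for ribosomal RNA and the 10 with most regions, and the scaffolds named were the 10 with most regions. Other regions were named for their place beside these or their repeat. Members and lists were chosen with earlier results of these data known. Of the 20 genes, 2 matched RefSeq by NCBI gene number. The alternatives were minimum differences of 5 and 10 points, at least 10 cytosines or 200 bp, the reduced list, joining of neighbours and leaving out scaffolds. Scripts used Python 3.11.15, pandas 2.3.3, numpy 2.4.6 and matplotlib 3.10.9 and were tested on simulated data.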

Additional observations from a re-analysis of the deposited data

How the results depend on the processing

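Shares, counts and median differences were recomputed under 11 alternatives, which gave 73 values. None changed direction. A share counted as moved outside the 95% Wilson interval of the reported share, which is wide for CG and CHG, and a count or median beyond 1.5 times. By this measure 52 values stayed and 21 moved. Within it, the CG share was 59.1% at 10 points and 63.6% with scaffolds weighted equally, compared with 72.5%, and the CHG share was 72.7% at 5 points. The Wilson interval takes regions as independent, which regions of a scaffold are not. It served as a yardstick only and does not describe the spread between rats. Most alternatives are subsets of the same regions. The number of regions fell from 466 to 133 at 5 points, 39 at 10 points, 146 at 200 bp and 118 in the reduced list, by construction of these limits. The share higher in CUMS over all contexts moved to 72.9% at 5 points, 71.8% at 10 points, 71.9% at 200 bp and 72.0% in the reduced list. For CHH it moved to 73.5%, 86.7% and 87.1% at 5 points, at 10 points and in the reduced list, and for CHG to 100% at 10 points (2 regions) and at 200 bp (1 region). Median differences moved to 12.0 points for CG at 10 points, to 5.33 and 14.9 for CHG and 6.18 and 11.0 for CHH at 5 and 10 points, and to 6.87 for CHH in the reduced list. The limits of 5 and 10 points leave out small differences, so the moves of the medians at these limits are largely by construction. The cytosine-weighted CHG mean was 1.33 points, compared with a median of 2.496, and the cause was not tested. The median difference of 5.8S CG regions was 8.19 points on scaffolds and 15.9 on chromosomes. The latter was counted among the alternatives, but it comes from another set of regions and is not a change of processing. Leaving out MU150189.1 or the 3 scaffolds with a ribosomal RNA region moved none of these values.

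No paired analysis was possible because each group has 1 mean value only. Leaving out single replicates was not possible for the same reason. The depth at each region is unknown, so a level resting on few reads cannot be told from a deeply covered one. Whether copies of repeated sequence share reads was not tested.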

Other observations

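Genes for 5S ribosomal RNA, which lie apart from the ribosomal DNA units, had regions on chromosomes 12 and 19 only. On chromosome 19, 3 CG regions at 4 genes were higher in CUMS, with 47.9%, 85.0% and 14.3% in CUMS and 25.8%, 64.0% and 9.38% in Ctrl. On chromosome 12, 3 CHG regions at 3 genes were lower in CUMS, with 0.0640%, 0.218% and 0.0826% in CUMS and 4.83%, 9.43% and 11.4% in Ctrl. A CHG region on chromosome 19 had 3.67% and 0.183%.

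Chromosome Y, to which the RefSeq entry of the Med14-like gene belongs, had 8 CG regions, all lower in CUMS, with medians of 69.7% in CUMS and 86.8% in Ctrl. On JACYVU010000493.1, which carries that gene, 2 CG regions were higher and 2 lower.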
